A study of Mus musculus with 20 samples.

Results

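The 10 genes described here encode alpha and beta tubulins of the mouse, the proteins that pair into the building block of microtubules. They were chosen by gene name, with earlier results of these data known. The set comprised 4 alpha tubulin genes (Tuba1a, Tuba1b, Tuba1c and Tuba4a) and 6 beta tubulin genes (Tubb2a, Tubb2b, Tubb3, Tubb4a, Tubb4b and Tubb5). All 10 were found among the 55487 genes of the count table, all carry the biotype protein coding, and all 10 passed the filter on low counts in every comparison.

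RNA was sequenced from subcerebral projection neurons, the cortical neurons that send axons to the brainstem and spinal cord, at postnatal day 1. The 20 libraries formed 4 groups of 5. These were somata (cell bodies) from cortex and growth cones (the tips of growing axons) from brainstem and spinal cord, each from wild-type (WT) mice and from mice labelled Bcl11b KO. Bcl11b encodes a transcription factor of these neurons. Libraries are named by the experiment number in their labels, which is 7 to 11 for growth cones of both genotypes, 12, 14, 22, 25 and 26 for WT somata, and 14, 15, 22, 25 and 26 for somata labelled KO. The Bcl11b allele, how somata and growth cones were isolated, and how many animals went into a library are not given in the sources used here. Nothing in the labels says that libraries of a group came from separate animals, so p-values measure the spread between these libraries.

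An alpha and a beta tubulin form a dimer, and dimers join end to end into the hollow microtubules that carry transport along the axon and are assembled and taken apart in the growth cone. Isotypes within a family share most of their sequence and differ mainly in the acidic tail at the end of the protein, where enzymes remove or add a terminal tyrosine and add chains of glutamate. Cells also adjust tubulin mRNA to the amount of free dimer, through a factor that recognises the first residues of the newly made protein and leads to decay of the mRNA being translated.

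Bcl11b was counted first, because it is the gene named in the labels. In WT somata it stood at 582, 805, 788, 788 and 536 CPM (counts scaled to a common library size, with TMM factors over the 20 libraries), and in the 5 soma libraries labelled KO at 1175, 1141, 1127, 1078 and 1230.4. Every soma library labelled KO was above every WT soma library (log2 fold change 0.71 ± 0.12 (SE), adjusted p = 0.0153 in edgeR's quasi-likelihood test with Benjamini-Hochberg adjustment). In growth cones the level was 101 ± 19.3 in WT and 102 ± 34.999 in those labelled KO (SD, n = 5), and the groups overlapped. Counts cover the whole gene, including any part outside a deletion, so they check neither the allele nor the labels. No loss of Bcl11b counts was seen in the libraries labelled KO. Other markers of these neurons differed between the soma groups as well. Of the 8 on the list, 3 were called higher in somata labelled KO (Bcl11b, Etv1 at 1.73 ± 0.23 and Diaph3 at 1.70 ± 0.27) and 2 lower (Crym at -2.20 ± 0.31 and Pcp4 at -1.86 ± 0.23), and 0 were called in growth cones (edgeR). Over all genes tested, 0.731% were called in somata and 0% in growth cones. Every direction given below between genotypes rests on the labels, and the groups are called labelled KO throughout.

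Total counts were 18962308 to 51205154 per library, lowest in 1 WT soma library and highest in somata labelled KO, and 17433 to 20084 genes had at least 1 count. Of the 8 pan-neuronal markers, 0 were higher and 3 lower in WT growth cones than in WT somata (Map2 at -1.59 ± 0.19, Snap25 at -1.23 ± 0.20 and Dcx at -1.15 ± 0.18 on the log2 scale, SE), with a list median of -0.40. Over all 15128 genes tested in that comparison, 23.1% were called higher and 19.7% lower. The same shares stand beside the other marker counts between WT compartments given here. Markers of subcerebral projection neurons summed to 2086 ± 132 CPM in WT somata and 797 ± 118 in WT growth cones. The 8 did not move together, with 5 called lower and 1 higher in WT growth cones. Pcp4 stood at 43.2 ± 13.6 CPM in WT somata and 299 ± 95.3 in WT growth cones. In the libraries labelled KO 5 were lower and 2 higher, beside 17.0% and 21.6% of all genes tested. The growth cone libraries also held more counts of most other cell types listed. The summed level of 10 oligodendrocyte-lineage markers was 96.03 ± 24.96 CPM in WT somata and 1282 ± 639 in WT growth cones (532 to 2220.0 over libraries), and that of 8 astrocyte markers was 115 ± 72.01 and 758 ± 97.7 (SD, n = 5). In growth cones labelled KO the same sums were 1053 ± 412 and 751 ± 150.4 CPM. Of these markers 7 of 10 and 7 of 8 were called higher in WT growth cones and 0 lower, and none was at 0 in a whole group. Interneuron markers summed to 29.8 ± 16.4 and 396 ± 67.9 CPM, and vessel and blood markers to 15.4 ± 8.03 and 369 ± 107, in WT somata and WT growth cones. Cycling-cell markers summed to 15.5 ± 3.36 and 83.6 ± 17.7 CPM, with 2 of 6 called higher. Microglia markers summed to 37.95 ± 32.9 and 55.4 ± 12.3 CPM, with 1 of 6 tested called higher and Cx3cr1 at 12.6 and 1.04 CPM. The microglia median log2 fold change was 0.76 in WT and 0.023 in the libraries labelled KO. Of 8 hindbrain and spinal cord markers, genes of the tissue the growth cones were taken from, 5 were tested and all 5 were higher in WT growth cones, with a median log2 fold change of 9.82. The list summed to 0.128 ± 0.0580 and 102 ± 22.2 CPM in WT somata and WT growth cones.

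The genes lie at a few loci. All coordinates are those of the deposited table, in build GRCm38, and the exons are those of GENCODE release M21. On chromosome 15, Tuba1b (ENSMUSG00000023004.8, chr15:98931425-98934565, minus strand) lies 15271 bases before Tuba1a (ENSMUSG00000072235.6, chr15:98949837-98953703, minus strand), and Tuba1a lies 76187 bases before Tuba1c (ENSMUSG00000043091.9, chr15:99029891-99038110, plus strand), with 0 other coding genes in either gap. On chromosome 13, Tubb2a (ENSMUSG00000058672.7, chr13:34074274-34078007, minus strand) and Tubb2b (ENSMUSG00000045136.6, chr13:34126748-34130466, minus strand) are separated by 48740 bases with 0 coding genes between. The other genes stand alone, Tuba4a at chr1:75214228-75219865 (ENSMUSG00000026202.13, minus), Tubb3 at chr8:123411424-123422015 (ENSMUSG00000062380.4, plus), Tubb4a at chr17:57080066-57087782 (ENSMUSG00000062591.5, minus), Tubb4b at chr2:25222160-25224702 (ENSMUSG00000036752.4, minus) and Tubb5 at chr17:35833921-35838306 (ENSMUSG00000001525.10, minus). The counted exons total 1610 bases in Tubb2a to 3701 bases in Tuba4a.

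How well short reads tell these genes apart depends on their sequence, and the ends of 5 of the coding sequences are shown for that reason. Each run gives the last 60 coding bases and the stop codon, from the GENCODE M21 transcripts, 5′ to 3′ on the coding strand, with the stop codon in capitals.
Tuba4a: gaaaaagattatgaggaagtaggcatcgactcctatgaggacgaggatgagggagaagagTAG
Tubb2a: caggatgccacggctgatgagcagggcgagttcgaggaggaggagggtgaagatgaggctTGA
Tubb2b: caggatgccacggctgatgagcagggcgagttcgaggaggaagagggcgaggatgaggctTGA
Tubb3: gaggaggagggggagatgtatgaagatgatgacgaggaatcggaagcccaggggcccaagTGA
Tubb5: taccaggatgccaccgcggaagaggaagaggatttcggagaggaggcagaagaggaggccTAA
The Tubb2a and Tubb2b tails are 95.2% identical, whereas the Tubb3 tail is 43.6% to 52.9% identical to the other beta tails. The last codon before the stop in Tuba4a is gag, a codon for glutamate. Over whole coding sequences Tuba1a and Tuba1b are 98.3% identical, Tubb2a and Tubb2b 96.5%, Tubb3 and the other beta genes 81.4% to 83.6%, and alpha and beta genes 55.9% to 58.5%.

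The first 15 coding bases encode the stretch of nascent protein through which tubulin mRNA decay is controlled, and are shown with the start codon in capitals. Tuba1a, Tuba1b and Tuba1c share 1 sequence here, and so do Tubb3 and Tubb4b.
Tuba1a: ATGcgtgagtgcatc
Tuba4a: ATGcgcgagtgcatt
Tubb2a: ATGcgcgagatcgtg
Tubb2b: ATGcgagagatcgtg
Tubb3: ATGagggagatcgtg
Tubb4a: ATGcgggaaatcgtg
Tubb5: ATGagggaaatcgtg
In windows of 50 bases along the transcripts, 75.5% of those of Tuba1a, 83.1% of Tuba1b and 61.0% of Tuba1c also occur in another gene. The share is 49.6% in Tubb2a, 39.3% in Tubb2b, and 55.5% in Tubb4b, whose windows recur in its pseudogenes. It is at most 0.2% in Tubb3, Tubb4a and Tubb5. Whether the counter kept, split or dropped multi-mapping reads is not given in the sources used here, so the levels of Tuba1a, Tuba1b, Tuba1c, Tubb2a, Tubb2b and Tubb4b are uncertain to that extent, and sums over near-identical genes are given beside them. Tuba4a shares 48.8% of its windows, but 2.4% of those in its coding sequence, and 1406 bases of its exons overlap Stk16 on the opposite strand.

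Tubulin mRNAs made up a smaller share of all counts in growth cones than in somata. The 10 genes together took 4.75 ± 0.529% of the counts of WT somata and 1.30 ± 0.0768% of those of WT growth cones (SD, n = 5), with ranges over libraries of 3.85% to 5.20% and 1.18% to 1.36%. In the libraries labelled KO the shares were 4.64 ± 0.564% and 1.34 ± 0.150%. Somata and growth cones did not overlap in either genotype. In bulk samples such as these, fewer cells of a type and less RNA per cell cannot be told apart, and every level is relative to the RNA of its own library. Compartment also went with source tissue, experiment number and the lowest RNA input (1.8 ng for somata, 0.19 ng for growth cones). In every comparison of compartments here these cannot be told apart.

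In the test across all genes, 7 of the 10 genes were lower in WT growth cones than in WT somata and 0 were higher (Tuba1a, Tubb2a, Tubb2b, Tubb3, Tubb4a, Tubb4b and Tubb5). Of the 15128 genes tested, 42.8% were called, 23.1% higher and 19.7% lower. The same 7 genes were lower in growth cones labelled KO than in somata labelled KO, and 1 gene, Tuba1c, was higher, where 38.6% of 15410 genes were called, 21.6% higher and 17.0% lower. For the 7 lower genes every growth cone library was below every soma library in both genotypes, which held for 17.3% of genes tested in WT and 17.5% in the libraries labelled KO. The median log2 fold change of the 10 genes was -1.99 in WT and -1.90 in the libraries labelled KO, against 0.069 and 0.11 over all genes tested. The 7 lower calls held in each of the 8 alternative settings and the 10 fits that left out 1 library, in either genotype. Tuba1b, Tuba4a and Tuba1c, the alpha genes other than Tuba1a, were not among the 7.

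**Figure D1:**
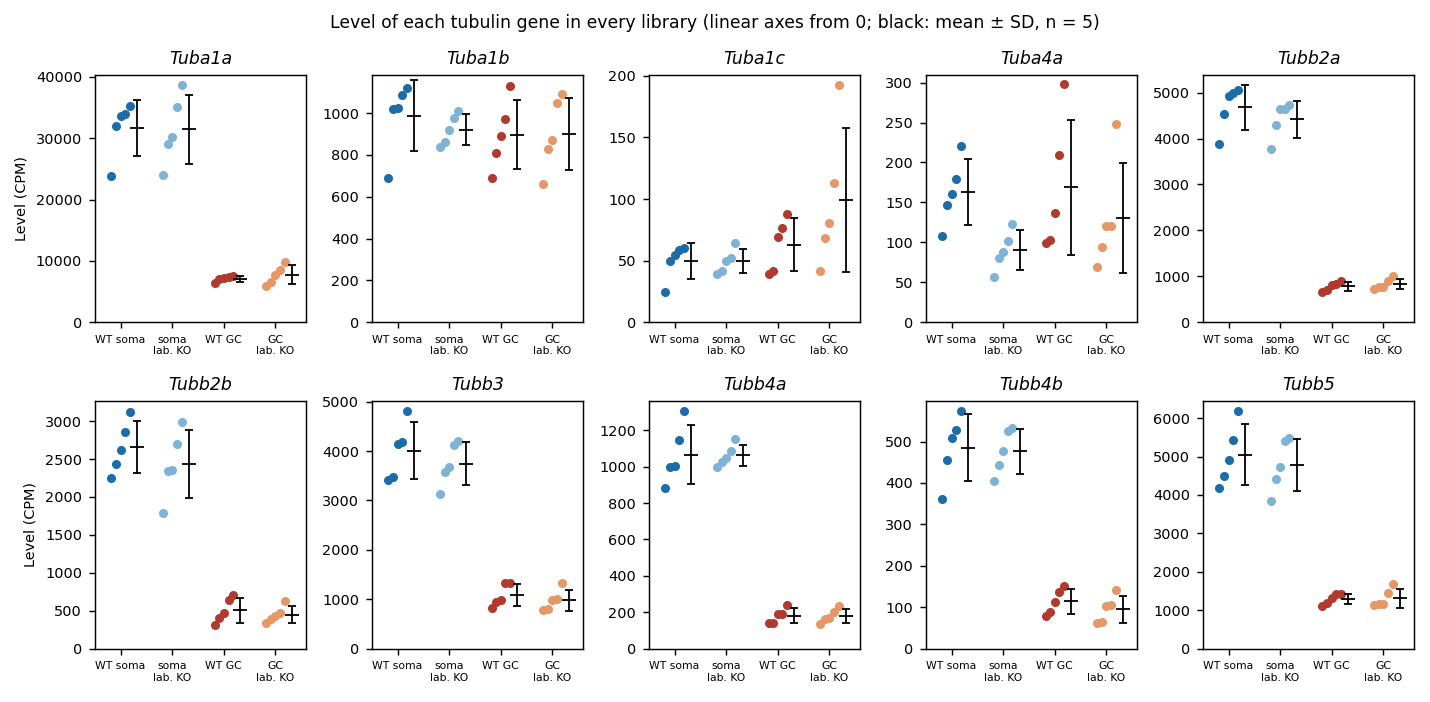
Level of each tubulin gene in every library, as CPM on a linear axis of its own, with points for single libraries and bars for the mean and SD of 5. Tuba1a lay between 23840 and 38727 CPM in somata and between 5873 and 9767 in growth cones, whereas the Tuba1b points of both compartments overlap.

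Tuba1a, the main alpha tubulin of young neurons, was the most abundant of the 10 in every group. Its levels in WT somata were 33587, 23840.4, 35322, 31964 and 33931 CPM, and in WT growth cones 7476, 6350.4, 7349, 7179.7 and 7034. In somata labelled KO they were 23966, 30243, 35079.5, 29085 and 38727 CPM, and in growth cones labelled KO 9767, 5873, 8582, 7675 and 6609.9. Every growth cone library was below every soma library, and WT soma library 14 and soma library 14 labelled KO were the lowest of their groups. The log2 fold change between compartments was -2.12 ± 0.12 in WT (adjusted p = 2.66e-07) and -1.95 ± 0.17 in the libraries labelled KO (adjusted p = 6.79e-06, both edgeR, SE).

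Tuba1b, an alpha tubulin made in most cell types, had similar levels in both compartments. In WT somata it stood at 1019, 691, 1024, 1121 and 1084 CPM, and in WT growth cones at 971, 689, 889.8, 808 and 1127. In somata labelled KO the levels were 839.9, 917, 975, 862 and 1012 CPM, and in growth cones labelled KO 871, 663, 826, 1092 and 1048. The groups overlapped in both genotypes, and the 691 CPM of WT soma library 14 lay below the other 4 WT soma libraries. The log2 fold change was -0.094 ± 0.17 in WT (edgeR adjusted p = 0.684) and 0.043 ± 0.14 in the libraries labelled KO (adjusted p = 0.833), a sign that turned with the scaling or the libraries fitted.

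The ratio of Tuba1a to Tuba1b, per kilobase of counted exon, was 33.6 ± 2.62 in WT somata and 8.38 ± 1.22 in WT growth cones (SD, n = 5). In somata and growth cones labelled KO it was 35.3 ± 3.79 and 9.11 ± 2.19. Somata ranged from 29.6 to 39.8 and growth cones from 6.49 to 11.7, with no overlap. This ratio is taken within a library and does not depend on the scaling between libraries. Both genes lie among those whose reads may be shared. Exons of other annotated genes also overlap up to 473 of the 1803 counted bases of Tuba1a and up to 513 of the 1875 of Tuba1b. The effect of these overlaps on the ratio was not tested. The sum of Tuba1a, Tuba1b and Tuba1c fell from 32767 to 8038 CPM between WT somata and WT growth cones, and was 32391 and 8700.4 CPM in the libraries labelled KO, without overlap in either genotype.

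Tuba1c, a further widely made alpha tubulin, was the least abundant of the genes in somata. Its WT soma libraries stood at 60.2, 50.04, 58.5, 54.5 and 24.8 CPM, and its WT growth cone libraries at 88.03, 41.8, 68.96, 76.9 and 39.2. Soma libraries labelled KO stood at 41.9, 39.5, 64.2, 49.4 and 52.2 CPM, and growth cone libraries labelled KO at 193, 41.6, 80.9, 113 and 68.2. Growth cone library 7 labelled KO, at 193 CPM, was the highest of the 20, and the groups overlapped in both genotypes. The log2 fold change was 0.39 ± 0.31 in WT (edgeR adjusted p = 0.341) and 1.08 ± 0.35 in the libraries labelled KO (adjusted p = 0.0304), where Tuba1c was thus called higher in growth cones. Leaving out 1 library ended that call in 6 of 10 cases (growth cone libraries 7 and 10 and soma libraries 14, 15, 25 and 26, all labelled KO), at 0.64 with an adjusted p of 0.0924 without growth cone library 7. It was also lost with limma-voom (adjusted p = 0.0516) and without the low-count filter (0.0623), the highest of the 8 alternatives, which began at 0.00759.

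Tuba4a, the alpha tubulin made without a terminal tyrosine, also had overlapping levels between compartments. WT somata gave 179, 107, 147, 160.1 and 220.5 CPM, and WT growth cones 209, 136, 99.03, 103 and 298. Somata labelled KO gave 80.9, 123, 102, 87.7 and 56.1 CPM, and growth cones labelled KO 119.9, 93.7, 69.5, 120.1 and 248. Library 11 was the highest growth cone library in both genotypes. The log2 fold change was 0.10 ± 0.31 in WT (edgeR adjusted p = 0.816) and 0.61 ± 0.33 in the libraries labelled KO (adjusted p = 0.163). Stk16, a kinase gene whose exons overlap those of Tuba4a on the other strand, rose from 46.6 ± 10.7 to 142 ± 48.1 CPM between WT somata and growth cones and from 53.98 ± 8.52 to 109 ± 21.9 in the libraries labelled KO (SD, n = 5; edgeR adjusted p = 0.000259 and 0.000922). The library kit does not mark strand, so reads of the 2 genes over their shared bases cannot be told apart.

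Tubb2a, a main beta tubulin of neurons, was the most abundant beta tubulin per kilobase in somata. Without the correction for length Tubb5 stood above it, at 5043 ± 793 CPM against 4680.1 ± 489 in WT somata (SD, n = 5). The levels of Tubb2a in WT somata were 4985, 3885, 5059, 4535 and 4936 CPM, and in WT growth cones 707, 814, 836, 661 and 888. Somata labelled KO had 3767, 4729, 4654, 4285 and 4654 CPM, and growth cones labelled KO 734, 766, 904, 777 and 998. The compartments did not overlap. At -2.54 ± 0.13 in WT, its log2 fold change was the lowest of the 10 genes (edgeR adjusted p = 8.51e-08), and 3.59% of all genes tested had a lower value. In the libraries labelled KO it was -2.32 ± 0.12 (adjusted p = 2.74e-07).

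Tubb2b, its neighbour and near copy, fell alongside. WT soma levels ran from 2248 to 3128 CPM and WT growth cone levels from 306 to 709, with a log2 fold change of -2.35 ± 0.22 (edgeR adjusted p = 7.11e-06). In the libraries labelled KO, somata held 1790.1 to 2996 CPM and growth cones 333 to 621, with -2.36 ± 0.19 (adjusted p = 4.37e-06). The sum of Tubb2a and Tubb2b was 5.70-fold lower in WT growth cones and 5.34-fold lower in growth cones labelled KO, without overlap. Their ratio per kilobase was 2.52 ± 0.269 in WT somata and 2.45 ± 1.04 in WT growth cones, with overlapping libraries.

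Tubb3, the beta tubulin used as a marker of neurons, has 0.0% of its 50-base windows in another gene. In WT somata it stood at 4139.8, 3485, 4817, 4194 and 3421 CPM, and in WT growth cones at 952, 1320.2, 1323, 982 and 829. In somata labelled KO it was at 3134, 3677, 4132, 3580.4 and 4211 CPM, and in growth cones labelled KO at 1011, 975, 1319.6, 806 and 787. All growth cone libraries lay below all soma libraries, with a log2 fold change of -1.85 ± 0.16 in WT (edgeR adjusted p = 3.92e-06) and -1.85 ± 0.16 in the libraries labelled KO (adjusted p = 6.11e-06). Of the neuronal markers read beside it, Stmn2 and Gap43, both mRNAs of growing axons, had log2 fold changes of -0.057 ± 0.12 and -0.24 ± 0.13 in WT and were not called. Others of the 8 pan-neuronal markers did fall in WT, where 3 (Map2, Snap25 and Dcx) were called lower and 0 higher, beside 19.7% and 23.1% of all genes tested. In the libraries labelled KO, Stmn2 and Gap43 had 0.066 ± 0.12 and -0.26 ± 0.10 (edgeR adjusted p = 0.691 and 0.0547), with no overlap between compartments for Gap43. There 4 of the 8 pan-neuronal markers were called lower, beside 17.0% of all genes tested.

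Tubb5, a beta tubulin of most cell types, shares 0.1% of its windows with other genes. WT somata held 4497, 4192, 6193, 5427 and 4904 CPM, and WT growth cones 1416, 1412, 1309, 1175 and 1113. Somata labelled KO held 3847, 4424, 5479.8, 4728 and 5416 CPM, and growth cones labelled KO 1674, 1150.1, 1447, 1126 and 1148. The compartments did not overlap, and the log2 fold change was -1.93 ± 0.13 in WT (edgeR adjusted p = 8.15e-07) and -1.79 ± 0.15 in the libraries labelled KO (adjusted p = 5.75e-06).

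Tubb4a, a beta tubulin of brain that oligodendrocytes also make in quantity, and Tubb4b, the beta tubulin found in cilia, fell too. Tubb4a went from 1067 ± 162 to 180.2 ± 41.9 CPM in WT (SD, n = 5), a log2 fold change of -2.52 ± 0.18 (edgeR adjusted p = 8.93e-07), and changed by -2.48 ± 0.15 in the libraries labelled KO. Tubb4b went from 485 ± 81.1 to 114 ± 31.2 CPM in WT, a log2 fold change of -2.05 ± 0.20 (adjusted p = 1.02e-05), and changed by -2.25 ± 0.23 in the libraries labelled KO. Neither gene's libraries overlapped between compartments in either genotype. Tubb4a fell while the summed oligodendrocyte markers given above were higher in growth cones, and ependymal and choroid plexus markers summed to 2.12 ± 1.79 CPM in WT somata and 355 ± 51.6 in WT growth cones. Most of the latter sum was the choroid plexus gene Ttr, at 315 ± 59.6 CPM, and the genes of ciliated cells Foxj1 and Rsph1 stood at 5.75 ± 3.71 and 26.2 ± 17.98 CPM. The remaining genes of that list were lower in WT growth cones, with Dynlrb2 at 4.97, Folr1 at 1.58, Ccdc153 at 1.49, Kl at 0.0532 and Tmem212 at 0 CPM. In WT somata all 8 had means under 1 CPM. The part that RNA of other cell types plays in the level of any tubulin gene in growth cones was not tested.

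**Figure D2:**
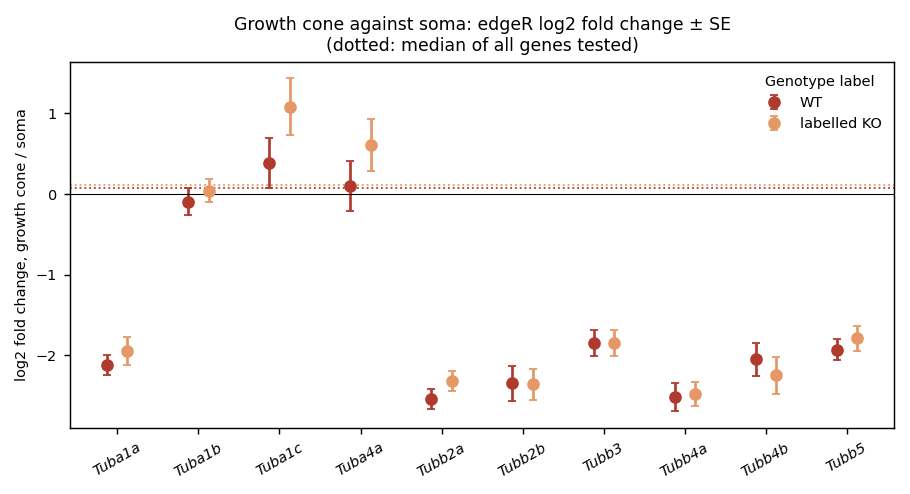
Log2 fold change of each tubulin gene in growth cones relative to somata (points, with bars of 1 SE), for WT and for the libraries labelled KO, with dotted lines at the median of all genes tested (0.069 and 0.11). The 7 called-lower genes lie between -1.79 and -2.54 in both genotypes, and Tuba1b, Tuba1c and Tuba4a lie between -0.094 and 1.08.

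The makeup of the alpha family differed between compartments, on a scale of counts per kilobase of exon. Tuba1a supplied 96.7 ± 0.236% of alpha tubulin in WT somata and 87.7 ± 1.84% in WT growth cones (SD, n = 5). Tuba1b supplied 2.89 ± 0.230% and 10.6 ± 1.49%. The shares of Tuba1c and Tuba4a were 0.122 ± 0.0392% and 0.240 ± 0.0422% in WT somata and 0.610 ± 0.187% and 1.01 ± 0.480% in WT growth cones. For each of the 4 alpha genes, soma and growth cone libraries did not overlap in share, in WT or in the libraries labelled KO, where Tuba1b took 2.78 ± 0.304% and 10.1 ± 2.22%. The shares of a family sum to 100, so the 4 are not independent. These shares carry the uncertainty of shared reads and overlapping exons described above.

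The beta family was more evenly spread. Tubb2a held 34.5 ± 2.45% of beta tubulin in WT somata and 27.1 ± 4.42% in WT growth cones, with overlapping libraries. Tubb3 held 25.4 ± 1.67% and 31.8 ± 3.45%, which did not overlap in WT but did in the libraries labelled KO (25.2 ± 1.22% and 29.6 ± 3.14%). Tubb5 was the beta gene whose share was higher in growth cones without overlap in both genotypes, at 17.9 ± 1.21% and 21.5 ± 1.49% in WT and 18.002 ± 1.26% and 22.4 ± 3.38% in the libraries labelled KO. These shares depend on the correction for length. Without it Tubb5 held 28.03% in WT somata and 32.6% in WT growth cones, above Tubb2a at 26.2% and 20.02%, and Tuba4a held 0.491% and 2.045% of alpha tubulin. Per kilobase, Tubb2b, Tubb4a and Tubb4b held 12.1 ± 3.42%, 4.47 ± 0.845% and 3.05 ± 0.882% of WT growth cone beta tubulin. The ratio of summed alpha to summed beta tubulin per kilobase was 2.15 ± 0.180 in WT somata and 2.52 ± 0.403 in WT growth cones, and the libraries overlapped.

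**Figure D3:**
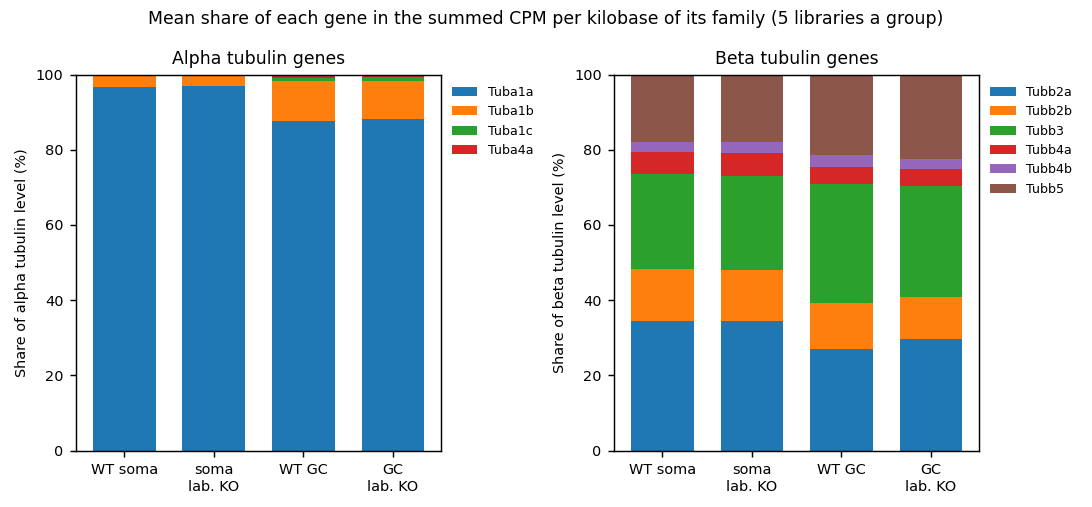
Mean share of each gene in the summed alpha tubulin (left) and beta tubulin (right) level per kilobase in the 4 groups of 5 libraries, as stacked bars from 0 to 100%. Tuba1b takes 2.89% of the alpha bar in WT somata and 10.6% in WT growth cones, while the beta bars keep 6 visible bands in every group.

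Per kilobase, the order of the genes in WT somata was Tuba1a, Tubb2a, Tubb3, Tubb5, Tubb2b, Tuba1b, Tubb4a, Tubb4b, Tuba4a and Tuba1c, from a mean of 17598 CPM per kilobase for Tuba1a to 21.7 for Tuba1c. Tuba1a exceeded Tubb2a, the next gene, 6.05-fold. In this order each gene was above the next in all 5 libraries, except that Tuba1b was above Tubb4a in 3 of 5. The ranges of Tubb2a and Tubb3, of Tubb3 and Tubb5, of Tubb5 and Tubb2b, and of Tuba1b and Tubb4a overlapped. Somata labelled KO had the same order, with Tuba1b above Tubb4a in 3 of 5 libraries and Tuba4a above Tuba1c in 3 of 5.

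In WT growth cones the order was Tuba1a, Tubb3, Tubb2a, Tuba1b, Tubb5, Tubb2b, Tubb4a, Tubb4b, Tuba4a and Tuba1c. Tuba1a, at 3926 CPM per kilobase, exceeded Tubb3 6.78-fold. The genes from Tubb3 to Tubb5 had means of 579, 485, 478 and 386 CPM per kilobase, and each overlapped the next, with Tubb2a above Tuba1b in 2 of 5 libraries. Tubb4a, Tubb4b, Tuba4a and Tuba1c at the lower end (80.9, 54.4, 45.7 and 27.5 CPM per kilobase) overlapped likewise. Growth cones labelled KO had the same order for the first 8 genes, and Tuba1c (43.4 CPM per kilobase) then came before Tuba4a (35.2), with overlapping libraries. Tuba1b, below every beta gene but Tubb4a and Tubb4b in somata, stood beside Tubb2a and Tubb5 in growth cones.

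Between genotypes, 0 of the 10 genes were called in somata by edgeR's quasi-likelihood test, where 0.731% of 14911 genes were called (109 genes), and 8.57% (1278 genes) reached an unadjusted p under 0.05. At an unadjusted p under 0.05 the list held 1 gene, Tuba4a, and DESeq2 also called 1, the same gene. All 10 fold changes were negative, with a median of -0.084 against -0.003 over all genes tested. Apart from Tuba4a they lay between -0.13 ± 0.13 (Tubb2b) and -0.01 ± 0.10 (Tubb4a) on the log2 scale, each smaller than its SE. The sign changed for 5 of the 10 genes in at least 1 alternative or leave-one-out fit, so a shared direction is not shown. A p that misses the threshold does not show that the levels were alike. The main tests between genotypes did not pair libraries by experiment number, and a fit with the number as a block is given below.

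Mean Tuba4a was 163 ± 41.6 CPM in somata of WT and 90.02 ± 24.9 CPM in those labelled KO (SD, n = 5), from the single values given above. The highest soma library labelled KO (library 15, 123 CPM) exceeded only WT soma library 14 (107 CPM). The log2 fold change was -0.86 ± 0.22 with an unadjusted p of 0.00215 and an adjusted p of 0.141 in edgeR, and the adjusted p was 0.00716 in DESeq2, the lowest of the alternatives, which reached up to 0.728. As a share of alpha tubulin, Tuba4a was at 0.197% to 0.306% in WT somata and at 0.0688% to 0.192% in somata labelled KO, without overlap. In level the groups overlapped for all 10 genes, where 1.29% of all genes tested were lower in somata labelled KO with no overlap. That background is of levels, and none was computed for shares. Stk16, which overlaps Tuba4a, stood at 46.6 ± 10.7 and 53.98 ± 8.52 CPM in the same groups.

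In growth cones 0 of the 10 genes were called between genotypes, as were 0 of all 15419 genes (0%) in edgeR, with 329 genes (2.13%) at an unadjusted p under 0.05. No tubulin gene reached an unadjusted p under 0.05, and DESeq2 and limma-voom also called 0 of the 10. The median was 0.018 against 0.012 over all genes tested. The highest value was that of Tuba1c, 0.65 ± 0.39, and the lowest that of Tuba4a, -0.37 ± 0.38 (SE, edgeR adjusted p = 0.999 for both). Tuba1a, at 7078 ± 439.7 CPM in WT growth cones and 7701 ± 1547 in those labelled KO, had 0.13 ± 0.14, and Tubb3 had -0.13 ± 0.17. The growth cones labelled KO spread more widely than the WT ones in Tuba1a, with the highest and the lowest of the 10 libraries both among them.

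The difference between compartments was itself compared between genotypes by an interaction term over all 20 libraries. None of the 10 genes was called in edgeR (0.0397% of 17645 genes were), none reached an unadjusted p under 0.05 (6.98% of genes did), and DESeq2 called 0 of them. Interaction values ran from -0.23 ± 0.30 for Tubb4b to 0.66 ± 0.48 for Tuba1c on the log2 scale (SE, adjusted p = 0.963 for Tuba1c). The call of Tuba1c in the libraries labelled KO and its absence in WT are therefore not shown to differ.

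**Figure D4:**
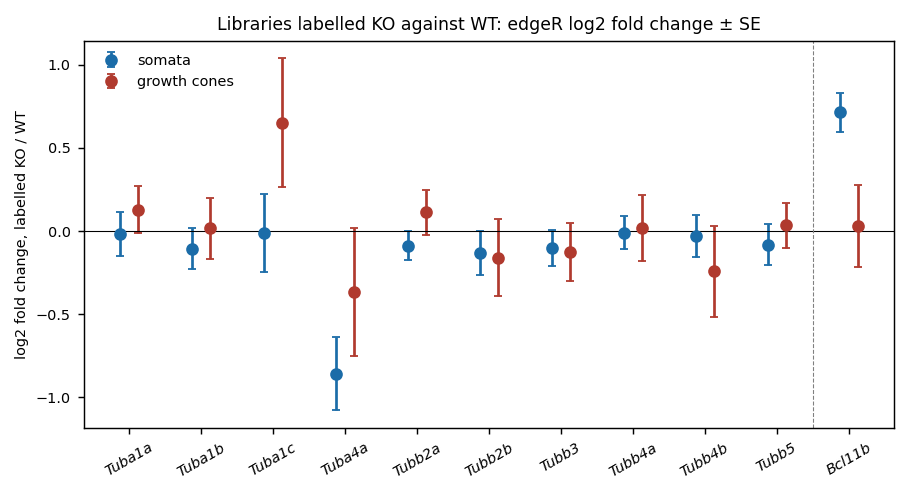
Log2 fold change between libraries labelled KO and WT (points, with bars of 1 SE) for the 10 tubulin genes in somata and in growth cones, with Bcl11b at the right for comparison. The tubulin values lie between -0.86 and 0.65, none called by edgeR, and Bcl11b in somata lies at 0.71.

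Genes that act on tubulin were read beside the tubulin genes. They are given by lists of tubulin folding, nucleation, modification, mRNA control and severing, beside the 42.8% of genes called in WT and the 38.6% in the libraries labelled KO. Of 13 genes for the folding of tubulin, 7 were higher and 1 was lower in WT growth cones than in WT somata, with a median log2 fold change of 0.98 (6 and 1 in the libraries labelled KO, median 0.50). Tbca, which binds newly folded beta tubulin, stood at 312 ± 68.4 CPM in WT growth cones and 81.9 ± 14.7 in WT somata (log2 fold change 1.97 ± 0.19, edgeR adjusted p = 9.23e-06). Pfdn5, Pfdn1 and Pfdn2, subunits of the prefoldin complex that hands nascent tubulin to the chaperonin, had 1.63 ± 0.21, 1.74 ± 0.25 and 1.25 ± 0.17. Of the other prefoldin genes, Pfdn4 was higher too (1.76 ± 0.27), and Vbp1 (0.10 ± 0.19) and Pfdn6 (0.21 ± 0.20) were not called. The lower gene was Tbcd, a cofactor that holds beta tubulin during dimer assembly, at -2.71 ± 0.66 in WT and -2.86 ± 0.27 in the libraries labelled KO.

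The enzymes of the tyrosine cycle at the alpha tubulin tail were split. Of 4 genes, 2 were higher and 1 lower in WT growth cones, and likewise in the libraries labelled KO. Svbp, the partner of the enzymes that remove the tyrosine, stood at 790.4 ± 202.4 CPM in WT growth cones and 103.1 ± 20.99 in WT somata (2.98 ± 0.21, edgeR adjusted p = 8.55e-07). Ttl, the ligase that puts the tyrosine back, was higher too, at 0.90 ± 0.20. Vash2, which encodes 1 of the removing enzymes, was lower, at -2.71 ± 0.55 in WT and -2.17 ± 0.21 in the libraries labelled KO.

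Of 15 tested genes of glutamate chains on tubulin, out of 19 listed, 2 were higher and 2 lower in WT growth cones (1 and 2 in the libraries labelled KO). Ttll1, the catalytic subunit of a brain polyglutamylase, had -1.49 ± 0.25, whereas Tpgs2, a subunit of the same complex, had 1.23 ± 0.20 (edgeR adjusted p = 0.000513 and 0.00047). Agtpbp1, which trims glutamates, had -1.13 ± 0.22. Of 3 acetylation genes, the acetyltransferase gene Atat1 (-1.05 ± 0.16) and the deacetylase gene Hdac6 (-2.62 ± 0.44) were lower and the deacetylase gene Sirt2 (0.75 ± 0.16) was higher in WT growth cones, with the same calls in the libraries labelled KO.

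Of the 3 genes for the control of tubulin mRNA by free tubulin, Ttc5, whose product reads the start of the nascent protein shown above as coding sequence, was lower in growth cones. It stood at 83.3 ± 20.8 CPM in WT growth cones and 158 ± 29.1 in WT somata (-0.88 ± 0.21, edgeR adjusted p = 0.00536) and had -0.95 ± 0.18 in the libraries labelled KO. Scaper and Cnot11, which link it to the mRNA decay machinery, had -0.47 ± 0.24 and -0.59 ± 0.47 in WT and were not called, while Cnot11 was called lower in the libraries labelled KO (-1.34 ± 0.44, adjusted p = 0.0303).

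Of 20 nucleation genes, 1 was higher and 4 were lower in WT growth cones, with Tubgcp2, a subunit of the gamma tubulin complex, at -2.03 ± 0.38 and the gamma tubulin genes Tubg1 and Tubg2 at -0.80 ± 0.28 and 0.81 ± 0.21. In the libraries labelled KO 3 nucleation genes were higher and 5 lower. Of 7 severing enzyme genes, 1 was higher and 2 were lower in WT growth cones. The lowest log2 fold change of the list, -2.38, was that of a sparse gene with overlapping libraries, at means of 1.16 CPM in WT growth cones and 6.23 in WT somata. Spast was 1 of the lower genes, at -0.74 ± 0.18, and was not called in the libraries labelled KO (-0.31 ± 0.26), where 0 severing genes were lower. Fign was higher in both genotypes, from a level near 0 in somata. Its mean was 0.338 CPM in WT somata (0 to 1.60 over libraries) and 10.8 in WT growth cones (1.75 to 23.3). In each list 0 genes were called between genotypes, in somata or in growth cones, and 0 in the interaction (edgeR). At an unadjusted p under 0.05, 3 of 68 genes tested in these lists and among the other tubulin genes differed in somata (Haus6, Mzt2 and Scaper), 1 of 66 in growth cones (Ttll11) and 1 of 71 in the interaction (Mzt2). Over all genes tested the shares at that p were 8.57%, 2.13% and 6.98%, so these lists did not exceed the background.

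**Figure D5:**
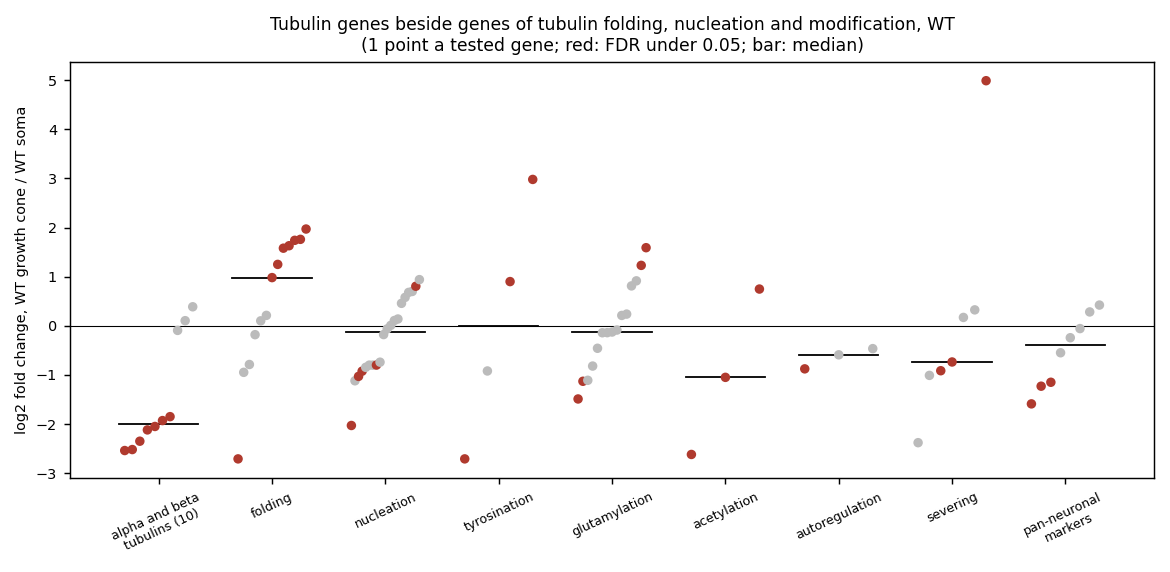
Log2 fold change in WT growth cones relative to WT somata for the 10 tubulin genes and for lists of genes that act on tubulin, with pan-neuronal markers for comparison. Each point is a gene, red where called by edgeR, and each bar is a list's median, -1.99 for the tubulin genes, 0.98 for folding genes and -0.40 for pan-neuronal markers.

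The 8 other tubulin genes looked at were sparse. Tuba3a, Tuba3b, Tuba8, Tubal3 and Tubb1 did not pass the filter in WT. Tubd1, a tubulin of centrioles, was called lower in growth cones labelled KO (-2.67 ± 0.84, edgeR adjusted p = 0.0257), and was not called in WT (-1.01 ± 0.89). Tubb6 and Tube1 had 1.42 ± 0.87 and 0.98 ± 1.31 in WT and were not called.

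Genes whose pattern over the 20 libraries came nearest to each tubulin gene were found by the root mean square difference of log2 CPM, each gene centred on its own mean, among 10709 genes. The points share the 2 compartments, so this is a description. Nearest to Tuba1a were Prmt1 and Prkar1a (both 0.209), and the nearest tubulin gene was Tubb5 (0.17). Tubb5 came nearest to Atp5b (0.16) and Psap (0.186), and Tubb3 to Actb (0.198) and Aplp1 (0.214), with Tubb5 at 0.176. For Tubb2a they were Dpysl3 and Uqcrc1 (both 0.2), for Tubb4a Uqcrc1 (0.232) and Maged1 (0.237), and for Tubb2b Uqcrc1 (0.279) and Maged1 (0.318). Tubb4b came nearest to Crmp1 (0.285) and Gpat4 (0.292).

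The 3 other alpha genes had other neighbours. Tuba1b came nearest to Arhgdia (0.161) and Cdk5 (0.172), much nearer than to any tubulin gene (Tuba4a, 0.534). Tuba1c came nearest to Usp21 (0.347) and Bok (0.409), and Tuba4a to Snrpn (0.436) and Abhd12 (0.442).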

How the data were processed

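Gene counts were deposited by the authors as 1 table of raw counts, with 20 library columns and no scaling. Per the submitters' processing notes, reads were handled with Trimmomatic 0.39, STAR 2.7.1a and featureCounts 1.5.0, and the build named there is GRCm39. The coordinates in the table are those of GRCm38, and for 98.1% of the 55487 genes, all 10 tubulin genes included, the exons equal those of GENCODE M21, which supplied symbols (55141 genes matched) and sequences. Strand use and multi-mapping reads are not given in the sources used here. Per the labels' protocols, libraries were prepared with SMART-seq v4 and Nextera XT, and the RNA used was 1.8 to 3.1 ng per soma library and 0.19 to 3.1 ng per growth cone library. The protocol names no molecular identifiers. 0 columns were left unmatched and 0 rows named no gene.

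Libraries were grouped by their titles. Counts were tested with edgeR 4.0.16 in R 4.3.3: filterByExpr (minimum count 10), TMM scaling, the quasi-likelihood F test on the 2 groups compared, and Benjamini-Hochberg adjustment over all genes at a false discovery rate of 0.05. The interaction was fitted over 20 libraries. Standard errors come from the F statistics. All adjusted p-values are from edgeR unless another tool is named. Levels are CPM with TMM factors over 20 libraries, and levels compared between genes are per kilobase of the deposited exon length. Replicates were compared by chi-square (at least 52.7 per degree of freedom), so none were merged. A gene and some sequences that these choices allow are not reported here.

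The 10 genes and the gene lists were chosen with earlier results of these data known. Of each list, up to 4 genes with the lowest p in a comparison could be named, besides all other tubulin genes and all genes of tubulin mRNA control, and as genes of like pattern the 2 nearest per tubulin gene with at least 5 CPM, leaving out symbols that are identifiers. Stk16 was named because its exons overlap Tuba4a, and the markers Stmn2, Gap43, Foxj1 and Rsph1 and the prefoldin genes Pfdn4, Vbp1 and Pfdn6 were singled out after their values were seen. The remaining ependymal and choroid plexus markers were given beside Foxj1 and Rsph1 to complete that list. Alternatives covered scaling, DESeq2 1.42.0, limma-voom (limma 3.58.1), the low-count filter, thinning to the smallest library, levels without the correction for length, a fit over all 20 libraries, the experiment number as a block, and leaving out each library.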

Additional observations from a re-analysis of the deposited data

Results flagged for a closer look

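Over the 40 sets of 5 libraries formed by the 10 genes in 4 groups, 3 libraries stood apart from the other 4 of their group by more than 0.71 of the group's whole range, where chance alone marks about 1 set in 20. In WT somata, library 14 held Tuba1b at 691 CPM, against 1019 to 1121 in the others. In the same group, library 26 held Tuba1c at 24.8 CPM, against 50.04 to 60.2 in the others. In growth cones labelled KO, library 11 held Tuba4a at 248 CPM, against 69.5 to 120.1 in the others. WT growth cone library 11 was also the highest of its group for Tuba4a, at 298 CPM.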

How the results depend on the processing

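The 7 genes lower in growth cones kept their calls in every alternative and leave-one-out fit named for them, between -1.64 and -2.65 in WT and between -1.59 and -2.62 in the libraries labelled KO on the log2 scale. Other results moved, and the cause was not tested. With DESeq2 1 tubulin gene was called between genotypes in somata. Over all genes, the 109 calls in somata became 393 with DESeq2 and 30 with a fit over all 20 libraries, and the 0 in growth cones became 11 and 7. The 7 calls of the interaction became 262 with DESeq2. Leaving out 1 library gave 67 to 107 calls in somata (67 without soma 22 labelled KO, 68 without WT soma 22), 0 in growth cones, and 5 to 12 in the interaction (12 without WT growth cone 7, 11 without growth cone 7 labelled KO).

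Without the correction for length, the share of Tubb5 in beta tubulin became 28.03%, 28.15%, 32.6% and 34.01% in WT somata, somata labelled KO, WT growth cones and growth cones labelled KO, that of Tubb2a 26.2%, 26.15%, 20.02% and 21.97%, and that of Tubb3 22.3%, 22.1%, 27.2% and 25.3%. The share of Tuba4a in alpha tubulin became 0.491%, 0.2865%, 2.045% and 1.53%, and that of Tuba1b in WT 2.99% and 10.9%.

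Genes whose change is near 0 changed sign. Between compartments in WT, Tuba1b was at 0.12 with upper-quartile scaling and 0.0621 with library totals alone, and in the libraries labelled KO at -0.0353 without the low-count filter and -0.0335 in the fit over all 20 libraries. The WT median of all genes tested moved from 0.0691 to 0.28 with upper-quartile scaling, 0.222 with library totals, 0.223 without the filter and -0.169 with limma-voom. In somata Tubb4a was at 0.0056 with library totals and 0.00265 with limma-voom. In growth cones, library totals gave -0.000881 for Tuba1b and -0.000558 for Tubb4a, and the interaction of Tubb4a was -0.0062.

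Leave-one-out ranges that crossed 0, on the log2 scale, were as follows. Between compartments they were -0.198 to 0.0222 for Tuba1b and -0.21 to 0.254 for Tuba4a in WT, and -0.0474 to 0.125 for Tuba1b in the libraries labelled KO. Between genotypes in somata they were -0.106 to 0.064 for Tuba1a, -0.181 to 0.0718 for Tuba1c, -0.0709 to 0.0718 for Tubb4a, -0.12 to 0.0345 for Tubb4b and -0.141 to 0.00282 for Tubb5. In growth cones they were -0.0878 to 0.114 for Tuba1b, -0.298 to 0.000482 for Tubb2b, -0.0882 to 0.141 for Tubb4a and -0.0498 to 0.0837 for Tubb5. In the interaction they were -0.2 to 0.104 for Tubb2b, -0.178 to 0.0326 for Tubb3 and -0.109 to 0.126 for Tubb4a.

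No paired analysis was possible between compartments because growth cone and soma libraries share no experiment number. Between genotypes, deviations from the group means were correlated for each pair of libraries. Pairs of the same number ran from 0.0166 to 0.0998 in growth cones (5 pairs) and from -0.0123 to 0.109 in somata (4 pairs). Pairs of different numbers ran from -0.0714 to 0.0592 (20 pairs) and from -0.132 to 0.0887 (21 pairs). The main tests did not use the number, and whether it pairs the libraries was not settled. Of the growth cone libraries, 5 of 5 labelled KO and 3 of 5 WT correlated best with their own number, and of the soma libraries 2 of 4 and 3 of 4. With the replicate block, 34 genes were called in somata, 0 in growth cones and 0 in the interaction, 0 of them tubulin genes. In that fit of somata Tuba1a was at 0.0129 ± 0.0518 and Tuba1c at 0.194 ± 0.245 (SE). Without the block they were at -0.0183 ± 0.132 and -0.0112 ± 0.232. Tuba1c had 433 to 4646 counts per library and Tuba1a 146927 to 1670282.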

Other observations

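The spread between libraries of a group differed among the tubulin genes. In WT growth cones the coefficient of variation of the level was 6.21% for Tuba1a, 10.7% for Tubb5 and 12.04% for Tubb2a, and it was 34.4% for Tuba1c and 49.97% for Tuba4a, the 2 least abundant genes per kilobase. Among the lower genes, Tubb2b had the widest spread in WT growth cones, 33.0%, with libraries 7 to 11 at 709, 641, 466, 405 and 306 CPM, against 13.1% in WT somata. In growth cones labelled KO the coefficient was 20.1% for Tuba1a, 58.6% for Tuba1c and 53.0% for Tuba4a. These differences in spread were not tested.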
